A study of Mus musculus with 2 samples.

Results

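Described here are 9 interferon-gamma inducible GTPase genes of the mouse, Gbp2, Gbp3, Gbp4, Gbp6, Gbp7, Igtp, Iigp1, Irgm1 and Irgm2, out of 34244 genes in the deposited lists. They were matched by gene symbol to a list that was chosen by their levels per class and their ratios between the libraries in earlier results of these same data, so those values are descriptions here and carry no test. The data were single-cell transcriptomes of liver cells from 2 C57/BL6 mice, 1 per group, from a study of how non-parenchymal cells respond to PCB126, a dioxin-like polychlorinated biphenyl that activates the aryl hydrocarbon receptor (AHR). The Control mouse was given peanut oil as vehicle, although its treatment label reads "Untreated". The other mouse was given PCB126 at 20 µg/kg/day, and both agents went in by gavage. Both mice ate a synthetic diet, were exposed for 5 weeks, fasted for 12 hours and were anaesthetised with tribromoethanol before the liver was taken. Both carry an age label of postnatal day 21, whose time point is not stated, and the protocol speaks of a single gavage beside a dose per day. With 1 library per group, mouse, library and treatment cannot be told apart, and every interval below covers counting error only.

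Interferon gamma, made mainly by T and NK cells, binds a receptor that signals through JAK kinases, and transcription factors such as IRF1 then switch on large GTPases in almost any cell type. The guanylate-binding proteins (GBPs) and the immunity-related GTPases (IRGs) assemble on the membranes around intracellular bacteria and parasites and help to break them open. Among the IRGs, Iigp1 (also called Irga6) is an effector of the GKS type, named after its nucleotide-binding motif, whereas Irgm1, Irgm2 and Igtp (also called Irgm3) are of the GMS type and regulate the effectors and keep them off the cell's own membranes.

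In GENCODE M21 (GRCm38) Gbp7, Gbp3 and Gbp2 lie on the plus strand of chromosome 3, with starts at 142530342, 142560026 and 142620602. Gbp4 and Gbp6 lie on the minus strand of chromosome 5, and the 3 GMS genes lie on chromosome 11. The start regions of 6 members were taken from the RefSeq promoter table (GRCm38.p6), in which Gbp4 and Gbp6 had no entry, and Iigp1 was left out of the search. They are shown because all 6 held the same motif, the interferon-stimulated response element (ISRE). It was searched on both strands as 2 blocks of GAAA with 2 bases of any kind between them. The capitals mark the ISRE match, which reads as blocks of TTTC where it lies on the reverse strand. Each stretch is written 5′ to 3′ on the strand of its gene.
Gbp2, chr3:142620594-142620623, plus strand: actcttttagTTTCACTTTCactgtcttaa
Gbp3, chr3:142559992-142560021, plus strand: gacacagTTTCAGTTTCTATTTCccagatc
Gbp7, chr3:142530258-142530317, plus strand: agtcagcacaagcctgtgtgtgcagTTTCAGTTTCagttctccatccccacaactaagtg
Irgm1, chr11:48871428-48871457, minus strand: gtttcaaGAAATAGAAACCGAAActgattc
Igtp, chr11:58199497-58199555, plus strand: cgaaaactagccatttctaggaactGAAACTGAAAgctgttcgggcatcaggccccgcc
Irgm2, chr11:58214888-58214947, plus strand: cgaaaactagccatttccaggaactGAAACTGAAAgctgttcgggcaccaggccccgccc

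Within 250 bases upstream of the RefSeq start, an ISRE match was found in 6 of these 6 genes, against 2.98% of the 32851 promoters in the table. The stretches of Gbp2, Gbp3 and Irgm1 meet annotated exons of GENCODE M21, and the matches of Gbp2 and Irgm1 lie within the GENCODE gene. Gbp3 and Irgm1 each held 2 overlapping matches, and a second annotated start of Gbp3 held none. The gamma-activated site (GAS, TTCNNNGAA, which reads the same on both strands) matched in Gbp7 (2 matches), Igtp and Irgm2, against 7.02% of all promoters. The core of the AHR response element (GCGTG, both strands) matched only in Irgm2, from base -5 to base -1, against 28.2% of all promoters. Over 59 bases the stretches of Igtp and Irgm2 were identical at 57 (96.6%). A match is a run of letters and not a shown binding site, and the lack of one says only that these letters are not in the window. Igtp and Irgm2 also overlap on the same strand, since an Irgm2 isoform of GENCODE M21 uses the first exon of Igtp. Their last exons, which 3′ counting mostly reads, do not overlap.

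**Figure D1:**
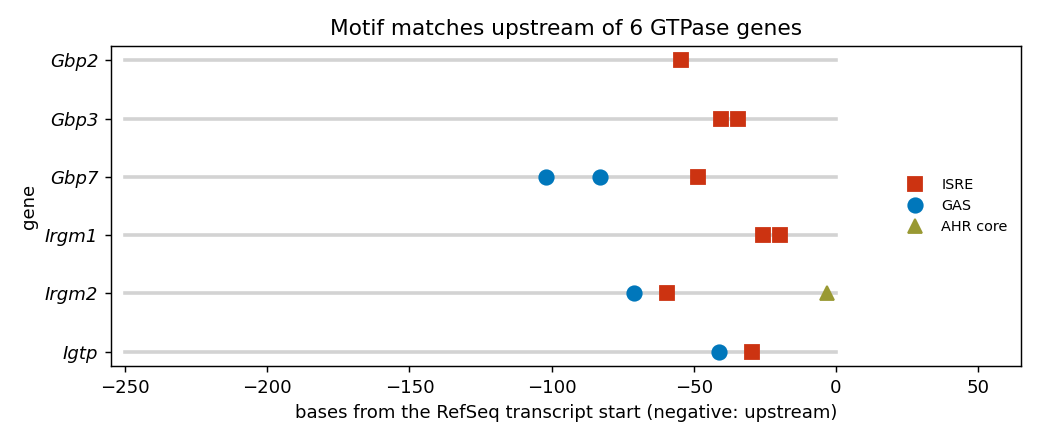
Position of motif matches upstream of 6 GTPase genes, in bases from the RefSeq transcript start (negative is upstream); squares are ISRE, circles GAS and the triangle the AHR core, each at its midpoint on a gray line of 250 bases. Each of the 6 genes holds an ISRE match between base -64 and base -15.

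The Control library held 1858 cells with a median of 5252.5 UMIs (unique molecular identifiers, counted transcript molecules) and the PCB126 library 1138 cells with a median of 6567. Median mitochondrial shares were 7.58% and 12.2%, and 412 and 1698 further barcodes failed on mitochondrial share alone. The libraries shared 3 barcodes, none of them among the cells. Cells were assigned to classes by a gate on marker genes that left out the GTPases, and a gated class is a range of marker scores rather than a type. Its cells within 0.02 of the limit numbered at most 9 in any class and library. The makeup differed widely: 755 Control and 95 PCB126 cells were neutrophil-gated, 430 and 13 monocyte-gated, and 212 and 535 gated as liver sinusoidal endothelial cells (LSECs). The summed markers of red cells, hepatocytes and neutrophils were lower in the PCB126 library in each of the 7 classes compared below. In the neutrophils' own class their markers summed to 194095 CPM in the Control and 124999 CPM in the PCB126 library. The part of this RNA in the results was not tested.

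Among the Control classes of at least 15 cells, the endothelial ones had the highest GTPase levels. In the PCB126 library T and NK, neutrophil and cholangiocyte-gated cells lay near or above the level of the sinusoidal endothelium. Hepatocytes were depleted before sequencing, and with 11 Control cells in their gate they were not ranked. Levels are UMIs scaled to 1000000 UMIs of the class (CPM), and since each transcript is counted once at its 3′ end, genes were set side by side without a length correction. The sum of the 9 genes was 541 CPM in Control vascular endothelial-gated cells (95% Poisson interval 481 to 606, 50 cells) and 482 CPM in LSEC-gated cells (446 to 521). T and NK-gated (273 CPM, 194 to 373, only 17 cells), B-gated (209 CPM, 22 cells) and cholangiocyte-gated cells (163 CPM, 64 cells) followed. Neutrophil-gated cells held 80.4 CPM, erythroid-gated 51.9, dendritic-gated 51.4, monocyte-gated 40.9 and cells led by Jchain and Mzb1 38.2. Neighbours in this order had overlapping intervals except at the steps from LSEC to T and NK and from cholangiocyte to neutrophil. In the PCB126 library the order ran from vascular endothelial (890 CPM) over T and NK (636), neutrophil (552), LSEC (532), cholangiocyte (476) and dendritic (348) to B (181), over classes of at least 20 cells. Macrophage-gated cells, under that minimum with 18, stood at 858 CPM (719 to 1016). From T and NK to cholangiocyte each interval overlapped with the next one in this order, but the T and NK interval (575 to 702) lay above those of LSEC (507 to 558) and cholangiocyte-gated cells (443 to 511).

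**Figure D2:**
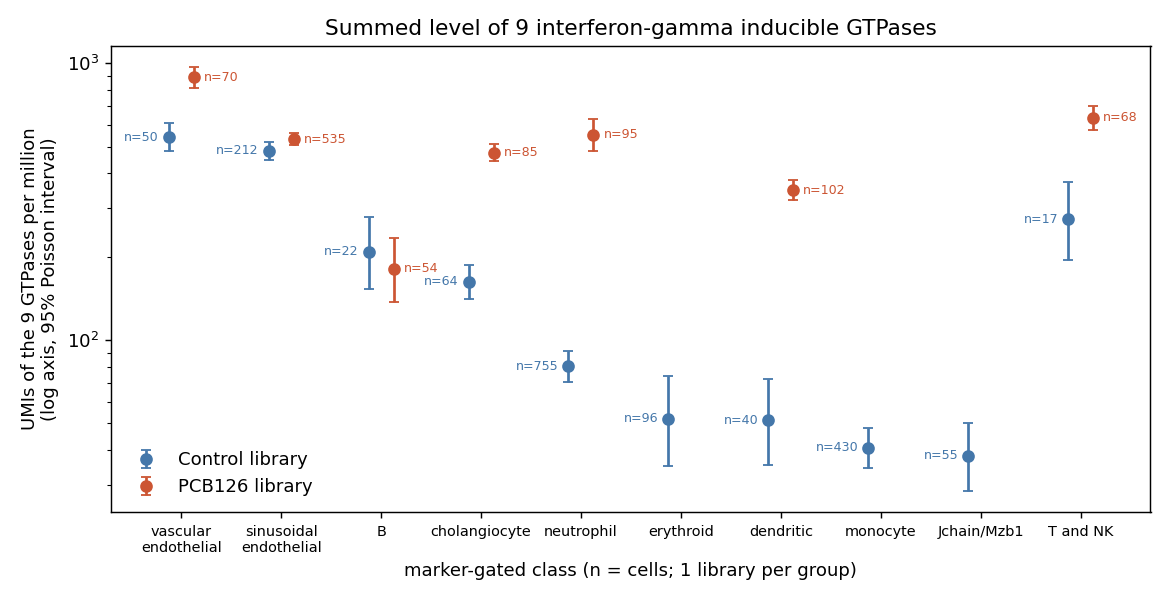
Summed level of the 9 GTPases per marker-gated class, in CPM on a log axis, with 95% Poisson intervals; blue is the Control and orange the PCB126 library, n is the number of cells, and classes with under 15 cells and macrophage-gated cells are not drawn. In the Control library the endothelial classes lie at 541 and 482 CPM and the neutrophil and dendritic classes at 80.4 and 51.4, whereas in the PCB126 library these last lie at 552 and 348.

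Set library against library, the sum was nearly level in LSECs and higher in the PCB126 library in 5 other classes. The ratio of the sum, PCB126 over Control, was 1.10 in LSEC-gated cells (95% counting interval 1.01 to 1.21), 1.64 in vascular endothelial-gated cells (1.42 to 1.90), 2.92 in cholangiocyte-gated cells (2.50 to 3.43) and 6.86 in neutrophil-gated cells (5.71 to 8.24). Dendritic, T and NK and B gates held fewer Control cells (40, 17 and 22, against 102, 68 and 54) and were added after the data were seen. Their ratios were 6.77 (4.77 to 9.94), 2.33 (1.67 to 3.32) and 0.867 (0.580 to 1.30). Whether these ratios differ between classes was not tested, as there is 1 library per group.

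Single genes were called at 1.5-fold in either direction, with 0.5 counts added to each sum, where both libraries together held at least 20 UMIs. In LSEC-gated cells 1 of 8 measured members was past 1.5-fold, and it was higher, against 23.9% of the 9498 genes measured there (11.6% higher, 12.3% lower). In vascular endothelial-gated cells 7 of 8 were past it, 6 higher and 1 lower (26.9% of all genes, 9.19% higher and 17.7% lower). In cholangiocyte-gated cells the count was 5 of 6, all higher (16.7%, with 9.77% higher and 6.9% lower), and in neutrophil-gated cells 5 of 5, all higher (39.3%, with 23.9% higher and 15.3% lower). The added classes gave 8 of 8 in dendritic (29.6%, 17.9% higher and 11.7% lower) and 5 of 7 in T and NK-gated cells (39.4%, 17.8% higher and 21.6% lower), all of them higher, and 1 of 2 in B-gated cells, which was lower (43.6%, 20.7% higher and 22.9% lower). Some counted as higher have counting intervals that include 1. These are Irgm1 (0.980 to 2.71) and Irgm2 (0.861 to 9.86) in dendritic-gated and Irgm1 (0.901 to 3.48) in vascular endothelial-gated cells. Median log2 ratios over the measured members were 0.18, 0.70, 1.52 and 2.66 in the first 4 classes, against -0.01, -0.08, 0.08 and 0.13 over all measured genes. In the dendritic gate the median was 4.01, or 2.50 with the 3 members absent from the Control library set against a floor of 3 counts, against 0.05. In the T and NK gate it was 1.98, or 1.67 with 1 such member, against -0.08. Several members reached 20 UMIs through the PCB126 library, so these counts and medians are no evidence of a direction.

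**Figure D3:**
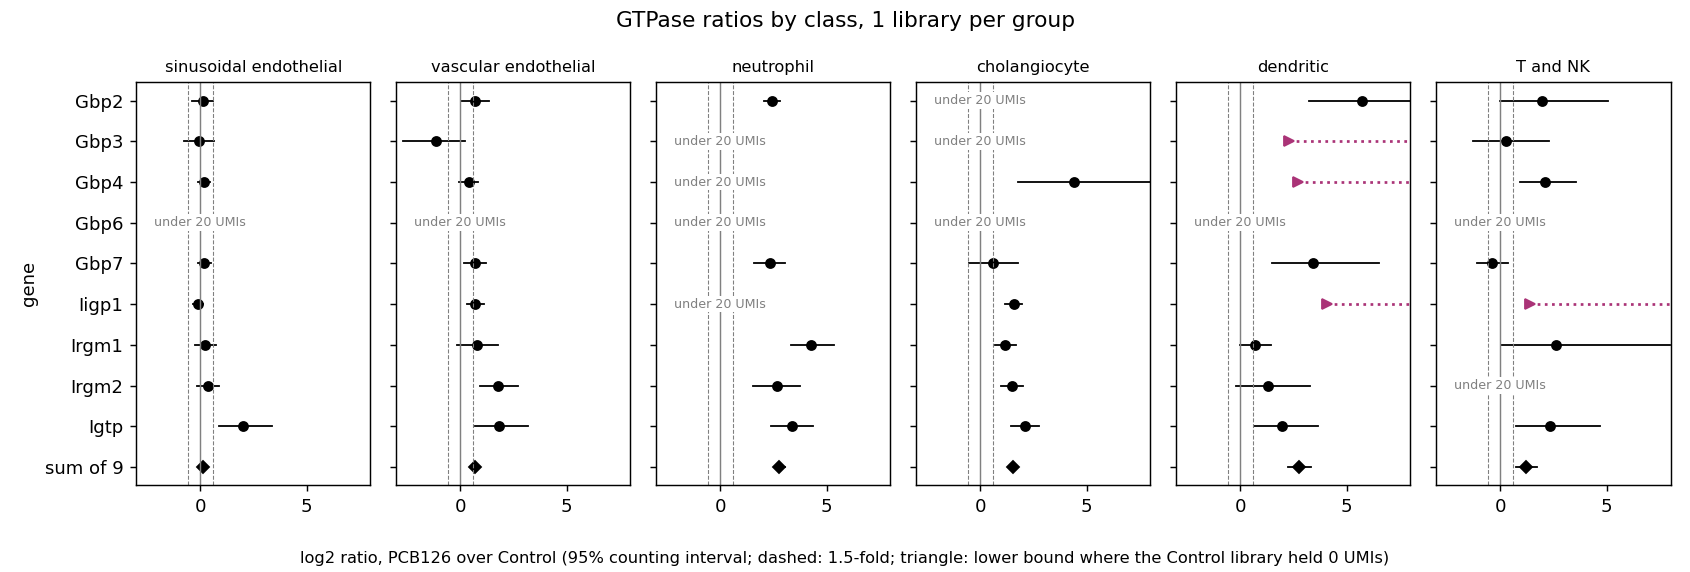
Log2 ratio of each GTPase and of their sum, PCB126 over Control, in 6 gated classes, with 95% counting intervals; dashed lines mark 1.5-fold and triangles are lower bounds where the Control class held 0 UMIs. The LSEC points lie near 0 except Igtp, and the neutrophil points all lie to the right of the upper dashed line.

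Summed over the 5 genes, the GBPs stood at 255 and 282 CPM in Control and PCB126 LSEC-gated cells and at 245 and 405 CPM in T and NK-gated cells. Gbp2, which takes part in the control of Toxoplasma, was the leading member of neutrophils. It made up 62.5% of their GTPase UMIs in the Control and 49.3% in the PCB126 library. Neutrophil-gated cells held 158 Gbp2 UMIs in the Control library (50.2 CPM) and 112 in 95 PCB126 cells (272 CPM), a ratio of 5.42 (4.22 to 6.95). In LSEC-gated cells Gbp2 stood at 37.9 and 41.0 CPM, a ratio of 1.08 (0.775 to 1.53). Vascular endothelial-gated cells had 56.7 and 91.9 CPM, and the ratio was 1.62 (1.03 to 2.60). Dendritic-gated cells had 1 UMI of Gbp2 in the Control and 133 in the PCB126 library, 1.56 and 82.7 CPM, a ratio of 53.1 whose counting interval ran from 9.36 to 2112. T and NK-gated cells had 2 and 34 UMIs (14.0 and 54.9 CPM), whereas in B-gated cells the Control library was the higher one, with 13 UMIs against 6. Cholangiocytes held little Gbp2 in either library, 4.09 and 5.51 CPM.

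Gbp4 and Gbp7 were the most abundant GBPs of endothelium. Gbp4 stood at 105 and 119 CPM in LSEC-gated cells and at 139 and 184 CPM in vascular endothelial-gated cells, and neither pair was past 1.5-fold. In the Control library Gbp4 was close to absent from 3 of the compared classes, with 1 UMI in neutrophil-gated, 1 in cholangiocyte-gated and 0 in dendritic-gated cells. The PCB126 library held 6, 28 and 49 in the same classes. For dendritic-gated cells this is 6.52-fold higher against a floor of 3 counts over the class, and the counting interval starts at 5.10. For cholangiocyte-gated cells the ratio was 21.0 (3.47 to 858). The PCB126 levels of Gbp4 were 17.1 CPM in cholangiocyte-gated and 14.6 CPM in neutrophil-gated cells. Barcodes with under 250 genes, a mark of free RNA, held Gbp4 at 1.59 CPM in the Control and 11.6 CPM in the PCB126 library. The part of free RNA in these levels was not tested. T and NK-gated cells had 6 and 111 Gbp4 UMIs, 42.0 and 179 CPM, a ratio of 4.26 (1.90 to 11.9). Gbp7 stood at 88.0 and 101 CPM in LSEC-gated and at 93.2 and 149 CPM in vascular endothelial-gated cells. It was the leading member of Control T and NK-gated cells at 161 CPM, and there the PCB126 level was 123 CPM, a ratio of 0.761 (0.472 to 1.27). Neutrophil-gated cells had 41 UMIs of Gbp7 in 755 Control and 27 in 95 PCB126 cells, and its level was 5.03-fold higher in the latter (2.98 to 8.38).

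Gbp3 and Gbp6 were the thinly counted GBPs. Gbp3 was highest in Control B-gated cells, with 20 UMIs (88.9 CPM) against 8 UMIs (25.0 CPM) under PCB126, giving a ratio of 0.281 (0.107 to 0.666). It was also lower in PCB126 vascular endothelial-gated cells, 14 against 7 UMIs, although that counting interval (0.153 to 1.19) includes 1. In LSEC-gated cells its levels were 19.7 and 19.1 CPM. Dendritic-gated cells held 0 and 37 Gbp3 UMIs. This is 4.92-fold higher in the PCB126 library against the floor of 3 counts, and the counting interval starts at 3.81. Gbp6 stayed under 20 UMIs in each compared class. Its highest level was 14.5 CPM in PCB126 T and NK-gated cells (9 UMIs), and neutrophil, dendritic and B-gated cells held none in either library. Gbp6 has a near-identical copy in Gbp10, so its counts are uncertain.

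Iigp1, the effector IRG, was abundant in endothelium and cholangiocytes and was not counted in neutrophils. It led in LSEC-gated cells with 205 UMIs in the Control and 460 in the PCB126 library, at 155 and 146 CPM with a ratio of 0.941 (0.797 to 1.11). Of the GTPase UMIs of these cells it made up 32.2% and 27.5%. In vascular endothelial-gated cells it stood at 152 and 248 CPM (1.63-fold, 1.24 to 2.16). Over the settings of the processing its log2 ratio there ran from 0.035 to 0.957. Cholangiocyte-gated cells held 68 and 271 UMIs, 55.6 and 166 CPM, a ratio of 2.99 (2.28 to 3.95). No Iigp1 UMI was found in 755 Control or 95 PCB126 neutrophil-gated cells, where Poisson upper limits are 1.17 and 8.96 CPM. None was found either in 430 Control monocyte-gated cells or in the B-gated cells of both libraries. Dendritic-gated and T and NK-gated cells had none in the Control library, with 40 and 17 cells, whereas the PCB126 library held 129 UMIs in 13 of 102 dendritic-gated cells and 34 UMIs in 9 of 68 T and NK-gated cells. Against the floor of 3 counts these are 17.2-fold and 2.61-fold higher, and the counting intervals start at 13.8 and 2.01. In neutrophil-gated cells, then, the members counted were GBPs and GMS regulators without this effector.

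The GMS regulators had the highest ratios among the measured members in LSEC, vascular endothelial and neutrophil-gated cells. Igtp was the single member past 1.5-fold in LSEC-gated cells, with 7 UMIs (5.31 CPM) in the Control and 67 (21.3 CPM) under PCB126, giving a ratio of 4.01 (1.84 to 10.4). The Igtp ratio was 3.59 in vascular endothelial-gated (14.6 and 52.5 CPM), 4.25 in cholangiocyte-gated (20.4 and 87.0 CPM) and 10.3 in neutrophil-gated cells (5.40 and 55.9 CPM). In the added classes it was 3.91 in dendritic-gated and 5.15 in T and NK-gated cells, and none of these 6 counting intervals includes 1. Irgm2 stood at 31.1 and 40.1 CPM in LSEC-gated cells, a ratio of 1.29 (0.899 to 1.88). It was 3.47-fold higher in PCB126 vascular endothelial-gated cells (1.94 to 6.60), 2.81-fold in cholangiocyte-gated and 6.30-fold in neutrophil-gated cells. Irgm1, which is also linked to autophagy and mitochondrial quality, had 13 UMIs in 755 Control neutrophil-gated cells (4.13 CPM) and 33 in 95 PCB126 cells (80.2 CPM). Its ratio there was 19.4 (9.95 to 40.2), against 1.19 (0.845 to 1.69) in LSEC-gated cells. Dendritic-gated cells held Irgm1 in both libraries (32.7 and 52.2 CPM), and it was the leading member in the Control ones with 21 of 33 UMIs.

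Summed by family, IRGs made up most of the count in cholangiocytes and GBPs most of it in neutrophils. The 4 IRGs stood at 147 and 433 CPM in cholangiocyte-gated cells, where the 5 GBPs reached 15.5 and 42.9. In neutrophil-gated cells the GBPs stood at 65.5 and 381 CPM and the IRGs at 14.9 and 170. Ratios of the families were alike in cholangiocyte-gated cells, 2.76 for GBPs (1.64 to 4.85) and 2.94 for IRGs (2.49 to 3.48). In vascular endothelial-gated cells they were 1.40 (1.15 to 1.70) and 2.00 (1.61 to 2.50), and in neutrophil-gated cells 5.83 (4.70 to 7.21) and 11.4 (7.76 to 16.8). T and NK-gated cells gave 1.65 (1.16 to 2.43) and 8.24 (3.15 to 30.6), the latter from 4 Control UMIs. In B-gated cells the families went apart behind the sum, with 0.621 for GBPs (0.391 to 0.984) and 3.51 for IRGs (1.18 to 14.1, also 4 Control UMIs). Dendritic-gated cells had the higher ratio in GBPs, with 36.3 (12.3 to 177) from 3 Control UMIs, against 3.82 for IRGs (2.62 to 5.76).

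**Figure D4:**
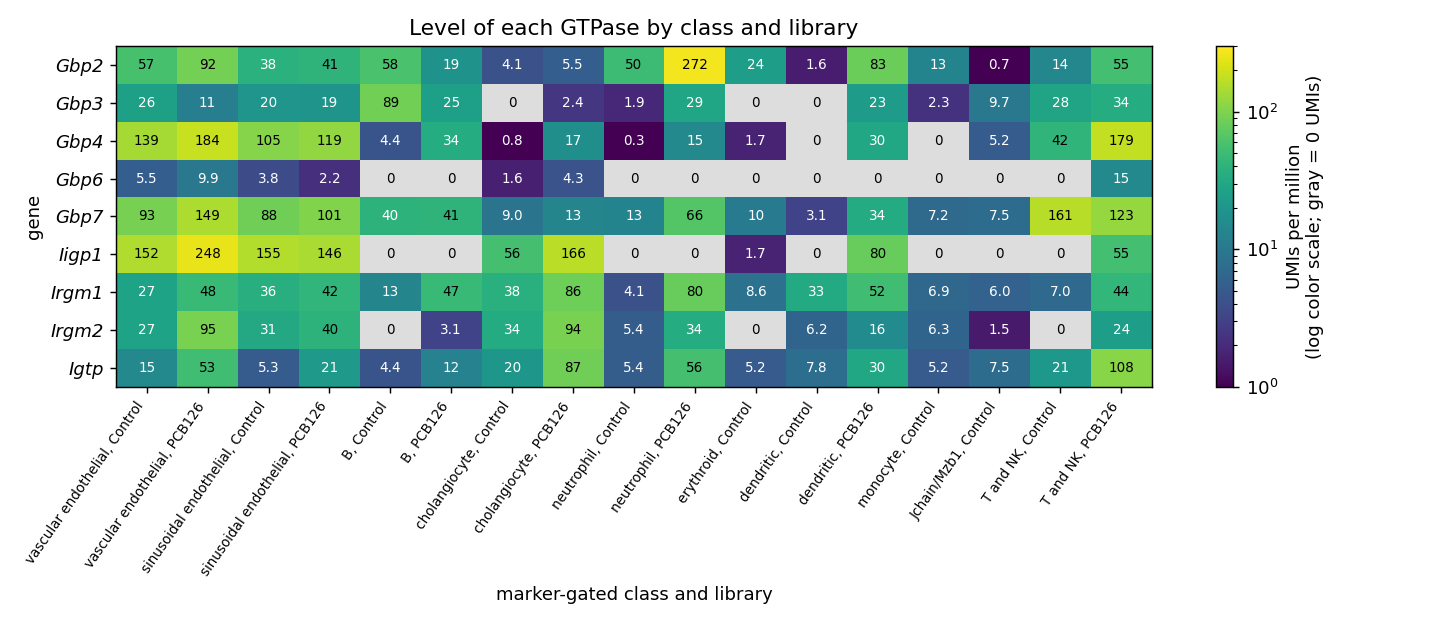
Level of each GTPase (rows) by gated class and library (columns), in CPM on a log color scale, with the value printed in each cell and gray for 0 UMIs. Iigp1 is gray in the B, neutrophil, monocyte, Control dendritic and Control T and NK columns, and Gbp2 reaches 272 CPM in PCB126 neutrophils.

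The GTPase UMIs of neutrophils came from few cells in both libraries. Of 95 neutrophil-gated cells, 37 (38.9%) held any member UMI and the top 10 cells held 85.0% of the 227 UMIs. In the Control library 141 of 755 (18.7%) held one, the top 76 cells held 74.3% of the 253 UMIs, and 1 cell alone held 56. Without the top cell of each library the levels were 62.7 and 462 CPM. Cells with UMIs of at least 3 members numbered 2 of 755 in the Control and 10 of 95 in the PCB126 library. The median depths of the top cells and the rest were close, 3823.5 and 3931 UMIs in the PCB126 library. The summed level of LSEC markers was 224 CPM in those top cells and 116 CPM in the rest, and its part was not tested. By cluster, 17 PCB126 cells of cluster 1, the cluster with the most Control neutrophils, held 153 UMIs, or 2320 CPM, against 115 CPM in 331 Control cells. Cluster 13, with 60 of the PCB126 cells, had 279 CPM against 111 CPM in 13 Control cells, and cluster 3 had 75.1 CPM in 12 PCB126 cells against 82.4 CPM in 239 Control cells.

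Dendritic-gated cells showed a like concentration. The top 11 of 102 PCB126 cells held 74.8% of 560 UMIs, and a single cell held 91. In the Control library the top 4 of 40 held 54.5% of 33 UMIs. Without that cell, and without the top Control cell, the levels were 296 and 37.3 CPM. Most Control cells (32 of 40) lay in cluster 11, where the levels were 57.6 and 230 CPM, whereas cluster 9 held 4 Control and 44 PCB126 cells. In LSEC-gated cells 81.1% of Control and 77.8% of PCB126 cells held a member UMI, and the highest cell had 14 and 98 UMIs. The Control LSECs lay mostly in cluster 6 (113 cells, 515 CPM) and the PCB126 LSECs mostly in cluster 2 (280 cells, 484 CPM). Within clusters 2, 4, 5 and 6 the PCB126 level was the higher one, and in cluster 14 the Control level was (444 against 220 CPM). Of the LSEC-gated cells 42 Control and 23 PCB126 cells lay in cluster 5, which was named from vascular endothelial markers. Split by zonation markers, the sum was 467 and 529 CPM in pericentral and 502 and 536 CPM in periportal LSECs.

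**Figure D5:**
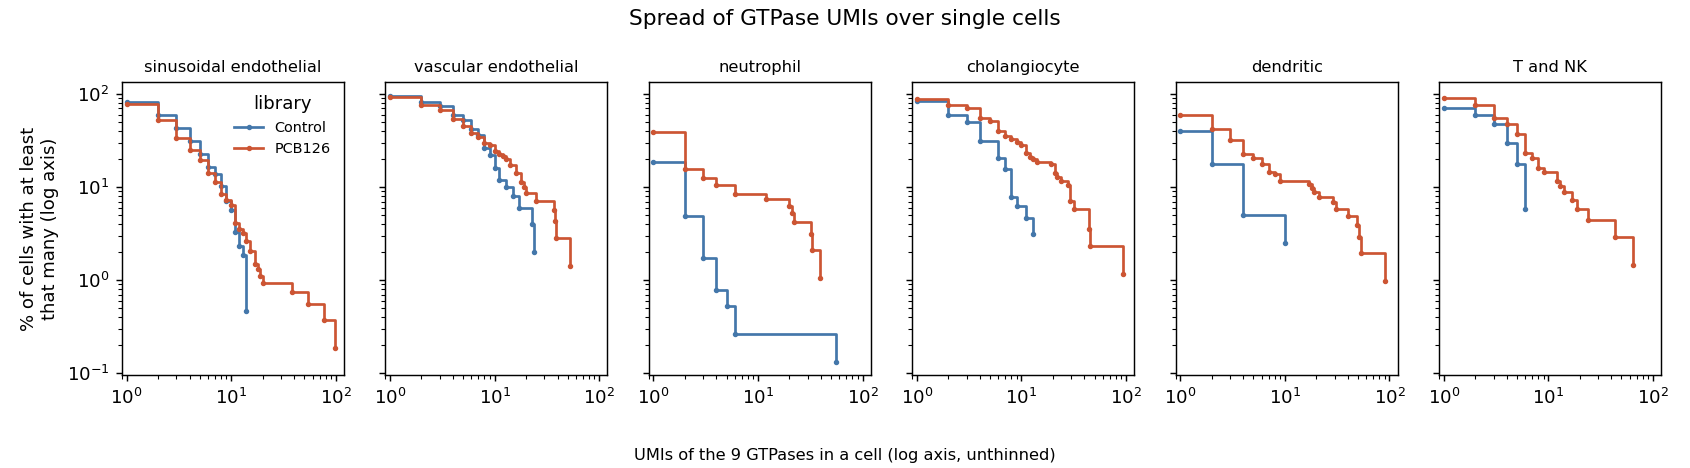
Share of cells in percent (log axis) with at least a given number of UMIs of the 9 GTPases (log axis, unthinned) in 6 gated classes, blue for the Control and orange for the PCB126 library. The PCB126 curves of neutrophil and dendritic cells run out to 39 and 91 UMIs in single cells, and the Control curves to 56 and 10. The LSEC curves start at 81.1% and 77.8% with at least 1 UMI and part above 10 UMIs, with 0.472% and 2.62% at 14.

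Depth was set equal by thinning each cell to 1000 UMIs. The share of cells with a member UMI was then 35.2% of 210 Control and 33.9% of 531 PCB126 LSEC-gated cells. Vascular endothelial-gated cells gave 30.0% of 50 (exact interval 17.9% to 44.6%) and 51.4% of 70 (39.2% to 63.6%). Neutrophil-gated cells gave 6.27% (4.64% to 8.25%) and 16.8% (9.94% to 25.9%), and cholangiocyte-gated cells 10.9% and 28.2%. As a rough mark of free RNA, the Control erythroid-gated cells, which had a median of 5058 UMIs, gave 4.17% of 96 (unthinned 16.7%). Only 55 of them lay in clusters named erythroid, while 13 lay in monocyte and 10 in neutrophil clusters. Whether their UMIs were free RNA was not tested, and the PCB126 library had only 2 such cells. In barcodes with under 250 genes the 9 genes stood at 14.0 CPM in the Control and 54.3 CPM in the PCB126 library. These levels lie under those of the compared classes, except that the PCB126 value is above the Control dendritic, monocyte, erythroid and Jchain/Mzb1 levels.

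The ligand was seen in T and NK-gated cells. Ifng, the gene of interferon gamma, had 60 UMIs in 8 of 17 Control cells (420 CPM) and 84 UMIs in 18 of 68 PCB126 cells (136 CPM), a ratio of 0.323 (0.229 to 0.457). Elsewhere 2 Ifng UMIs were found in 1 PCB126 LSEC-gated cell. Of the list of receptors and kinases (7 genes), 0 of 7 measured genes were past 1.5-fold in LSEC, cholangiocyte and dendritic-gated cells. The shares of all genes past it were 23.9%, 16.7% and 29.6%. In neutrophil-gated cells 4 of 7 were past it, 2 higher and 2 lower, against 39.3% of all genes (23.9% higher, 15.3% lower). The receptor chain gene Ifngr1 had ratios of 0.967, 0.939, 1.08 and 1.10 in LSEC, vascular endothelial, cholangiocyte and dendritic-gated cells. In neutrophil-gated cells it was 0.656 (0.458 to 0.914), from 141 to 92.3 CPM. The other genes past 1.5-fold there were Ifnar1, lower with a ratio of 0.405, Ifnar2, just past it with 77.6 and 117 CPM, and Tyk2, 1.70-fold higher from 36 and 8 UMIs. These are chains of the type I interferon receptor and a kinase that it uses. In vascular endothelial-gated cells 3 of 6 were lower, Jak2 (0.293), Ifnar1 (0.399) and Jak1 (0.625), against 17.7% of all genes.

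Irf1, a transcription factor of the interferon response, was 1.57-fold in neutrophil-gated (1.36 to 1.81) and 2.54-fold in dendritic-gated cells (1.65 to 4.09), and was within 1.5-fold in both endothelial classes and in cholangiocytes. The brakes on the pathway went apart. Socs1 had 4 and 36 UMIs in LSEC-gated cells (3.77-fold, 1.35 to 14.6), while Socs3 was lower in LSEC (0.450), vascular endothelial (0.539), cholangiocyte (0.264) and dendritic-gated cells (0.359) and 2.38-fold higher in neutrophil-gated cells.

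Other interferon-inducible GTPases, 15 of 19 listed genes being in the files, were counted beside the 9. All 8 measured ones were higher in PCB126 cholangiocyte-gated cells (median log2 ratio 2.25), all 4 in neutrophil-gated cells (2.63) and 8 of 11 in dendritic-gated cells (2.08). The shares of all genes higher there were 9.77%, 23.9% and 17.9%. Ifi47, an IRG of the GKS type, had ratios of 24.8 in neutrophil-gated (14.0 to 46.6), 4.49 in cholangiocyte-gated and 1.68 in LSEC-gated cells. In LSEC-gated cells 1 of 8 was higher (11.6% of all genes) and 3 were lower (12.3%). Among the lower ones were 9930111J21Rik2 (0.654) and F830016B08Rik (0.522), both related large GTPase genes. Vascular endothelial-gated cells had 2 of 7 higher (9.19% of all genes), among them Gbp9 (62.2 and 100 CPM, 1.61-fold). Tgtp1 and Tgtp2 are near-identical copies, so their counts are uncertain.

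Non-GTPase targets of interferon gamma and type I interferon-stimulated genes were set beside them. Of the non-GTPase targets, 12 of 15 measured were higher and 1 lower in neutrophil-gated cells, where 23.9% of all genes were higher. Cholangiocyte-gated cells had 8 of 14 higher and 2 lower (9.77% of all genes higher), and LSEC-gated cells 5 of 17 higher and 2 lower (11.6%). Vascular endothelial-gated cells had 4 of 14 higher and 3 lower (9.19%), dendritic-gated cells 1 of 17 higher and 1 lower (17.9%), T and NK-gated cells 5 of 14 higher and 2 lower (17.8%) and B-gated cells 4 of 13 higher and 3 lower (20.7%). The invariant chain gene Cd74 of MHC class II was 9.24-fold higher in cholangiocyte-gated cells (7.46 to 11.6, 74.4 and 688 CPM) and 1.20-fold in dendritic-gated cells. The MHC class I light chain B2m was 1.66-fold in cholangiocyte-gated, 1.60-fold in neutrophil-gated and 1.39-fold in LSEC-gated cells. Against the same shares of all genes, 7 of 7 measured genes of the type I list were higher in neutrophil-gated, 8 of 9 in dendritic-gated and 5 of 10 in cholangiocyte-gated cells. The count was 2 of 12 in LSEC-gated cells, with 1 lower, which is near the 11.6% of all genes. It was 1 of 8 in vascular endothelial-gated cells (median log2 ratio -0.02), near the 9.19%, and 2 of 2 in T and NK-gated cells, and the 1 gene measured in B-gated cells was lower. Isg15, a ubiquitin-like modifier, was 4.85-fold in neutrophil-gated (3.69 to 6.34) and 18.4-fold in dendritic-gated cells (7.05 to 68.1). Of the autophagy and membrane genes with which these GTPases work, 1 of 13 was past 1.5-fold in neutrophil-gated cells (39.3% of all genes). The count was 1 of 13 in cholangiocyte-gated (16.7%) and 2 of 13 in LSEC-gated cells (23.9%). Dendritic-gated cells had 2 higher and 1 lower of 13 (29.6% of all genes in either direction). Vascular endothelial-gated cells had 1 higher and 1 lower of 11 (26.9%), and T and NK-gated cells 1 higher and 2 lower of 10 (39.4%).

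Across 16 units of library and gated class, the genes whose levels followed the GTPase sum most closely were Gbp9 (Pearson r 0.869), Cdc37l1 (0.866), Ifit2 (0.859), Abcd4 (0.857), H2-Q4 (0.854), Xaf1 (0.854), Yaf2 (0.844) and Zmym5 (0.838), out of 10605 genes ranked. These units share libraries, depth and free RNA, so the values describe these 2 libraries. Gbp9 stood at 71.3 and 61.7 CPM in LSEC-gated cells and at 4.13 and 31.6 CPM in neutrophil-gated cells.

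Markers of other cells moved with some of these results. In neutrophil-gated cells the 10 LSEC markers summed to 49.6 CPM in the Control and 126 CPM in the PCB126 library, with 1 and 0 of them at 0. There 7 markers shared by endothelial cells summed to 38.5 and 124 CPM. In cholangiocyte-gated cells the LSEC markers summed to 19.6 and 66.1 CPM, while neutrophil markers went from 1972 to 1124 CPM and red cell markers from 4007 to 20.2 CPM. The vascular endothelial markers in LSEC-gated cells summed to 2842 and 1726 CPM. In dendritic-gated cells monocyte markers went from 273 to 510 CPM, with 4 of 11 at 0 in each library, and neutrophil markers from 1189 to 31.1 CPM. In T and NK-gated cells all 13 markers of that class were detected in both libraries. The part of these RNAs in the results was not tested.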

How the data were processed

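Per the labels' protocols, enzymatic dissociation was followed by slow spins and a strainer to deplete hepatocytes and by lysis of red cells, and droplet 3′ libraries were loaded for 6000 cells. The authors deposited raw UMI counts, 1 matrix per library with no normalization. Their deposited gene and barcode lists carry other content, the identifiers of rows and columns. Cell Ranger 6.0.0 wrote the matrices per the file headers, whereas version 6.1.1 and, as a further tool, Seurat 4.0.1 stand in the submitters' processing notes. No source used here names the genome build. GENCODE M21, from which positions were taken, holds 34049 of the 34244 gene identifiers.

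The Control matrix held 8550 barcodes with 24134912 UMIs and the PCB126 matrix 4307 with 16269562. Cells had at least 500 UMIs, at least 250 genes and at most 20% mitochondrial UMIs, and the highest Scrublet scores (0.8% per 1000 barcodes, 28 and 11 cells) were left out. Scores per class were means over markers of log counts per 10000 UMIs, each scaled to its 99th percentile. A cell joined its best class with at least 3 markers detected and a lead of 0.05, and 92 Control and 86 PCB126 cells joined none. Leiden clusters came from 2000 variable genes, 30 principal components and 15 neighbours, without the GTPases. For each class in each library, raw counts were added up and expressed as CPM. Poisson, Clopper-Pearson and conditional binomial intervals (95%) were exact. Compared classes had 50 or more cells on both sides, and those with 15 or more were added later. Where a Control sum was 0, the fold was set against 3 counts. Likeness between genes was Pearson's r of log2(CPM + 10), over genes with at least 100 UMIs. The ratio step was tested on simulated data. All 9 members are named, the whole ligand, receptor and factor lists were open to naming, and of the other lists the 3 with the most UMIs in the class. F830016B08Rik, and Ifi47 in LSEC-gated cells, were named after their values were seen. One listed factor, and the count of its list, are not reported here. Members and gene lists were chosen with earlier results of these data known. Python 3.11.15, scanpy 1.11.5, leidenalg 0.10.2, scipy 1.17.1 and numpy 2.4.6 were used.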

Additional observations from a re-analysis of the deposited data

Results flagged for a closer look

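Gbp3 went in opposite directions in 2 classes. Its log2 ratio, PCB126 over Control, was 4.90 in dendritic-gated cells and -1.78 in B-gated cells, a difference of 6.68 on the log2 scale. Each group has 1 library, so the difference was not tested. The dendritic value rests on 0 Control UMIs, so it depends on the 0.5 counts added. Of the Control B-gated cells, 3 of 22 held 68.1% of the summed GTPase UMIs. Their part in the Gbp3 value was not tested.

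Barcodes with 20% to 50% mitochondrial UMIs, which entered no comparison, also held GTPase transcripts. In LSEC-gated ones the sum of the 9 genes was 240 CPM in 86 Control and 334 CPM in 881 PCB126 barcodes, a ratio of 1.39 (95% counting interval 1.02 to 1.95). In neutrophil-gated ones it was 83.9 CPM in 31 Control barcodes, from 4 UMIs, and 889 CPM in 46 PCB126 barcodes, from 154 UMIs. The ratio there was 10.6 (4.05 to 39.4).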

How the results depend on the processing

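No paired analysis was possible because each group has 1 library and no replicate numbers. Depth limits the single genes, and the 0.5 counts added set the log2 ratio of members at 0 in the Control library. Of 44 member ratios, 32 were past 1.5-fold, and 27 of these stayed past it in every setting that gave a value, while 5 came under it in at least 1. The 5 were Gbp2, Gbp3, Iigp1 and Irgm1 in vascular endothelial-gated cells and Irgm1 in dendritic-gated cells. Settings on the 3 added classes and on matched clusters were chosen after the data were seen. The LSEC sum (log2 ratio 0.14) became 0.53 at no more than 10% mitochondrial UMIs, -0.034 at up to 50% and -0.032 with Leiden classes, and its count of members past 1.5-fold (1) became 4 at 10%, 2 when thinned, 2 with no minimum of UMIs, 0 at a minimum of 100 and 2 with clusters weighted equally. In vascular endothelial-gated cells the count (7) was 0 when thinned, 4 with the stricter gate, 2 at a minimum of 100 UMIs and 3 at 2-fold, and Gbp3 (-1.11) reversed to 0.039 with Leiden classes. The neutrophil sum (2.78) was 2.20 at 10% mitochondrial UMIs, 2.36 with the stricter gate and 3.12 with clusters weighted equally, and its count (5) was 2 at 10%, 1 when thinned and 1 at 100 UMIs. The cholangiocyte sum (1.55) was 1.82 with no doublets left out, 1.88 thinned and 1.27 with cells weighted equally, and its count (5) was 0 when thinned. The dendritic sum (2.74) was 1.94 thinned and 1.98 with clusters weighted equally, and its count (8) was 0 when thinned, 3 at 100 UMIs and 3 with clusters weighted equally. The T and NK sum (1.20) was 1.86 thinned, and its count (5) was 3 at 10% mitochondrial UMIs, 1 thinned and 1 at 100 UMIs. The B sum (-0.21) was 0.46 with cells weighted equally, and its count (1) was 3 at 50% mitochondrial UMIs, 0 thinned, 0 with Leiden classes, 6 with no minimum, 0 at 100 UMIs and 0 with clusters weighted equally. Thinning and the higher minimum leave fewer members with enough UMIs to be counted. The other 139 main values stayed within their limits. The causes of the other changes were not tested.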

Other observations

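A few classes held too few cells in 1 library to be compared, and their GTPase levels are given as values. In the PCB126 library 18 macrophage-gated cells held 134 UMIs of the 9 genes, 858 CPM (95% Poisson interval 719 to 1016), of which 1 cell held 53. In the Control library 5 macrophage-gated cells held 7 UMIs, 98.1 CPM (39.5 to 202). Monocyte-gated cells held 106 UMIs in 13 PCB126 cells, 739 CPM (605 to 893), against 142 UMIs in 430 Control cells, 40.9 CPM. Iigp1 had 10 UMIs in 3 of those 13 cells and none in the 430. Cells gated by Jchain and Mzb1 stood at 38.2 CPM in 55 Control cells and held 5 UMIs in 6 PCB126 cells.

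Within single LSEC-gated cells of the PCB126 library, thinned to 1000 UMIs, Gbp4 was found in 12 of 66 cells with an Iigp1 UMI (18.2%) and in 37 of 465 without one (7.96%). In the Control library the shares were 3 of 30 (10.0%) and 20 of 180 (11.1%). Other pairs were also counted. Gbp7 was in 8 of 66 PCB126 cells with Iigp1 (12.1%) and 34 of 465 without (7.31%). In Control cells these were 2 of 30 and 12 of 180. With and without Gbp2, Gbp7 was in 2 of 17 (11.8%) and 40 of 514 (7.78%) PCB126 cells. Igtp was in 0 of 23 PCB126 cells with Irgm2 and 8 of 508 without. In Control vascular endothelial-gated cells Gbp4 was in 2 of 7 with Iigp1 and 0 of 43 without. Cells differ in composition within a class, and these shares describe the cells of 2 mice.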
